A study of Arabidopsis thaliana with 3 samples.

Results

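The mRNAs of 10 genes for alpha- and beta-tubulin were followed in TAIL-seq libraries of Arabidopsis thaliana flowers. They were chosen by locus identifier. The alpha-tubulin genes were TUA2 (AT1G50010), TUA3 (AT5G19770), TUA4 (AT1G04820), TUA5 (AT5G19780) and TUA6 (AT4G14960). The beta-tubulin genes were TUB2 (AT5G62690), TUB3 (AT5G62700), TUB4 (AT5G44340), TUB5 (AT1G20010) and TUB6 (AT5G12250). All 10 had reads, among 16577 locus identifiers in the data, and 1623 of 442916 reads were tubulin reads, counting each read once. These were 794 reads in replicate 1, 398 in replicate 2 and 431 in replicate 3. In TAIL-seq, RNA molecules receive an adapter at their 3′ ends. Paired reads then give both the gene and, from the adapter side, the number of As in the poly(A) tail and any nucleotides added after them. The study used these libraries to find out which mRNAs carry uridines (U) after the tail. All 3 libraries were wild-type Col-0 flowers, a tissue of many cell types, and formed 1 group, so the comparisons are between mRNAs and not between conditions.

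Alpha- and beta-tubulin form the heterodimer that polymerizes into microtubules. In plant cells, microtubules build the cortical array that guides cellulose deposition, and the preprophase band, spindle and phragmoplast of dividing cells. As an mRNA ages, its poly(A) tail is shortened, and a shortened tail can be extended with uridines, in Arabidopsis mostly by the terminal uridylyltransferase URT1. The tubulin genes of Arabidopsis include near-identical copies that encode the same protein, which limits how well short reads can be given to 1 gene.

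The libraries did not stand on the same footing. Replicate 1 held 222681 reads and came from one sequencing run, while replicates 2 and 3, with 113458 and 106777 reads, came from another, so run and replicate cannot be told apart. The 22 mRNAs that the study also followed by 3′RACE-seq took 1.58% of reads in replicate 1, 29.2% in replicate 2 and 23.2% in replicate 3. PPME1, which is expressed in pollen, had 148 reads in replicate 1, 16 in replicate 2 and 12 in replicate 3, and the part of such cell-type differences in the values below was not tested. The flower identity genes AP1, PI and AP3 had 211, 164 and 50 reads in the 3 libraries together, and AG and SEP3 had 8 and 18.

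The copies could be told apart only in part of their length, and the ends of their coding sequences show how. The last 30 bases of the coding sequences are given below for the near-identical copies, from the RefSeq annotation of the TAIR10.1 genome. They are written 5′ to 3′ on the coding strand and end with the stop codon. Capitals mark bases that differ within a group, in its first gene from any other gene of the group and in the others from the first gene.
TUA2, chr1:18519700-18519729, plus strand: gatgaGgatgatgaaggagaggaGtactaa
TUA4, chr1:1356421-1356450, minus strand: gatgaAgatgatgaaggagaggaAtactaa
TUA6, chr4:8548769-8548798, minus strand: gatgaggatgatgaaggagaggaAtactaa
TUA3, chr5:6682761-6682790, minus strand: gatgaagaagatgaaggtgaagactattga
TUA5, chr5:6688897-6688926, plus strand: gatgaagaagatgaaggtgaagactattga
TUB2, chr5:25183472-25183501, plus strand: ggtgaataTcaacaggaGgaagagtactga
TUB3, chr5:25186397-25186426, plus strand: ggtgaataCcaacaggaAgaagagtactga

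TUA3 and TUA5, neighbours on chromosome 5, had no difference in these bases. Their coding sequences were 97.9% identical and encode the same protein, and so do those of TUB2 and TUB3, also neighbours on chromosome 5 (97.6% identical), and of TUA2 and TUA4 (96.6%). TUA4 and TUA6 were 95.7% identical and encode different proteins. The 3′ UTRs were less alike, with 59.1% identity for TUA3 and TUA5, 63.3% for TUB2 and TUB3 and 64.6% for TUA4 and TUA6. Of the 560 windows of 41 bases, the length of the aligned read, in the last 600 bases of each mRNA, 202 of TUA5 were also present in TUA3. The other way round, 113 windows of TUA3 were present in TUA5. TUA4 and TUA6 had 50 such windows in common, TUB2 and TUB3 had 34, and TUA2 and TUA4 had 30.

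Reads given to more than 1 gene were mostly shared between near-identical copies. They were 147 of the 1623 tubulin reads (9.06%), compared with 2.15% of all reads. In replicate 1 they were 15.4% of tubulin reads, in replicate 2 they were 2.76% and in replicate 3 they were 3.25%. Over all reads the share was also the highest in replicate 1, at 3.20%, 0.978% and 1.22% in replicates 1, 2 and 3. TUA3 and TUA5 shared 97 reads, TUB2 and TUB3 shared 24, TUA4 and TUA6 shared 21 and TUB4 shared 4 with TUB9. TUA2 and TUA4 shared none, although they had 30 windows in common. One read was given to TUB3 and to 10 further loci. The annotated 3′ end of TUA5 overlaps AT5G19790 on the opposite strand, and no TUA5 read was also given to that gene. Values per gene count a shared read for each gene, so the values of TUA5, with 97 of its 122 reads shared, are mostly those of TUA3 as well.

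The first question was how often tubulin tails were uridylated. Uridylated tails made up 6.17%, 8.79% and 11.4% of tubulin reads in replicates 1, 2 and 3, and their Wilson 95% intervals ran from 4.7 to 8.07%, from 6.39 to 12% and from 8.71 to 14.7%. Among the reads of all other mRNAs they made up 7.41%, 9.96% and 11.6%. The mean was 8.78% ± 2.60 for tubulins and 9.67% ± 2.12 for the other mRNAs (SD, n = 3 for each). Counted over reads, the tubulin value was the lower in each library, by 0.887 percentage points on average with an SD of 0.550. The value of the other mRNAs lay inside the interval of the tubulin value in each library. TUB3 and TUB4 gave most of the tubulin reads (453 and 428). With the 10 mRNAs weighted equally, the tubulin mean was 10.8% ± 5.77 (SD, n = 3), above the 9.67% of the other mRNAs. Without the 22 mRNAs followed by 3′RACE-seq, the other mRNAs had 7.45%, 10.95% and 12.5%. Counted over reads, tubulins were then lower by 1.52 percentage points on average with an SD of 0.559. The size of the gap therefore moved with those 22 mRNAs, and whether their reads came from amplicons was not tested. No p is given for the family as a whole. Tails ending in an added G or C were 0.770% ± 0.342 of tubulin reads and 0.798% ± 0.164 of the reads of other mRNAs (SD, n = 3 for each).

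The added stretches were short. Of 133 uridylated tubulin tails, 84 carried 1 U, 43 carried 2 and 6 carried 3, and none of the 133 carried more. The share with a single U was 64.0% ± 8.25 in tubulins and 64.5% ± 3.37 in the other mRNAs (SD, n = 3 for each). Stretches of 3 or more Us were found on 4.08% ± 4.08 of uridylated tubulin tails and on 8.43% ± 2.27 of those of other mRNAs (SD, n = 3 for each). When the 22 mRNAs followed by 3′RACE-seq were left out, the share in other mRNAs was 5.55% ± 0.444 (SD, n = 3).

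Each mRNA with at least 20 reads was then compared with all other reads of the same libraries by a Cochran-Mantel-Haenszel test, with Benjamini-Hochberg adjustment over 3439 mRNAs. None of the 10 tubulin mRNAs passed an adjusted p of 0.05 in this test, where 9.51% of all mRNAs tested were called above and 5.76% below the others. At an unadjusted p under 0.05 there were 2 of 10, 1 in each direction, where 13.9% of all mRNAs tested were above and 9.92% below at that threshold. A beta-binomial model and an exact conditional test called 0 of 10 each, compared with 13.99% and 16.3% of all mRNAs tested. The pooled percentages ran from 3.12% to 13.9% with a median of 9.79%, and the median over all mRNAs tested was 8.00%. Of the 10 odds ratios, 5 were above 1 and 5 below.

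**Figure D1:**
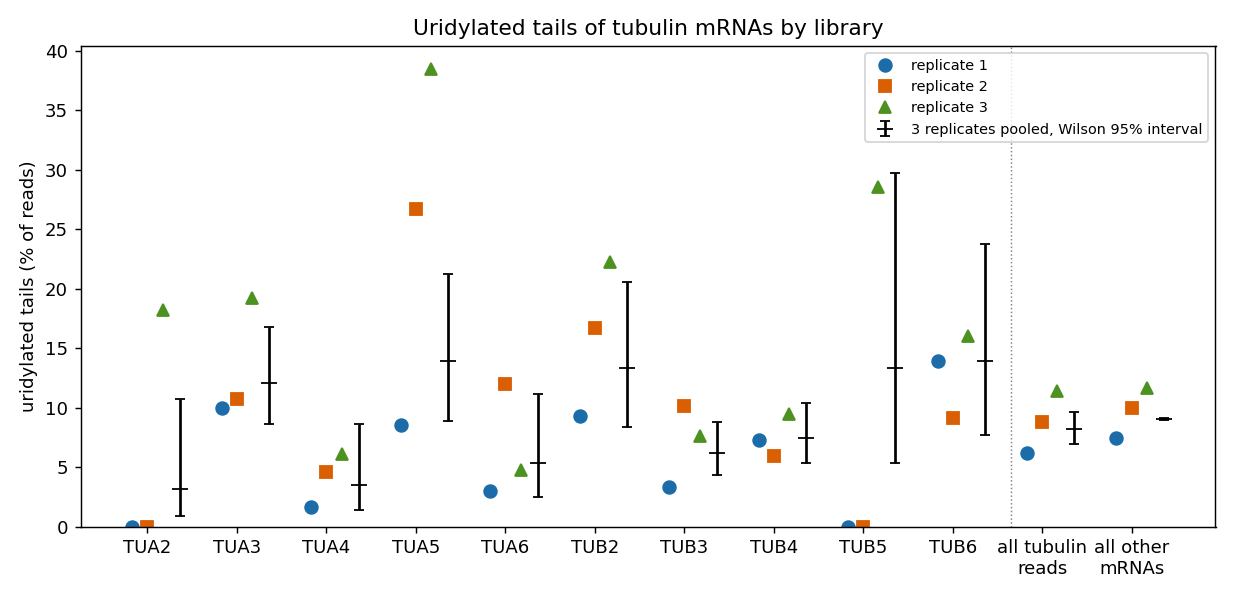
Share of uridylated tails (% of reads, vertical axis) of each tubulin mRNA in the 3 replicates (coloured symbols), with the pooled value and its Wilson 95% interval in black. All tubulin reads and all other mRNAs stand at the right, and the 3 symbols of most single mRNAs spread more widely than those of all tubulin reads, which lie at 6.17%, 8.79% and 11.4%.

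The lowest values were found in the alpha-tubulins TUA2, TUA4 and TUA6. TUA2 had 0 of 44, 0 of 9 and 2 of 11 reads uridylated in replicates 1, 2 and 3, where the counts of 0 allow shares of up to 6.82% and 33.3%. TUA4 had 1 of 60, 1 of 22 and 2 of 33, a pooled 3.48% with an odds ratio of 0.357 (95% interval 0.131 to 0.971), and TUA6 had 2 of 67, 3 of 25 and 1 of 21, a pooled 5.31%. Mutations in TUA4 and in TUA6 are known to twist the growth of organs. TUA2 had an odds ratio of 0.340, which was 0.910 without replicate 1, the library with 44 of its 64 reads. The odds ratio of TUA4 was 0.209 without the shared reads, and that of TUA6, 0.583, was 0.383 without replicate 2. Neither TUA4 (adjusted p = 0.217) nor TUA2 (0.493) nor TUA6 (0.581) passed the Cochran-Mantel-Haenszel test after Benjamini-Hochberg adjustment.

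TUA3 and TUA5, which encode one and the same alpha-tubulin, stood above them in the pooled reads. TUA3 had 14 of 140, 6 of 56 and 10 of 52 reads uridylated in replicates 1, 2 and 3, which is 12.1% in all. TUA5 had 8 of 94, 4 of 15 and 5 of 13, which is 13.9% with an odds ratio of 1.84 (95% interval 1.10 to 3.08). TUA5 had an unadjusted p of 0.0306, and its adjusted p of 0.148 (Cochran-Mantel-Haenszel, Benjamini-Hochberg) did not pass the threshold. That value depended on replicate 1, which held 94 of its reads, 81 of them shared with TUA3. Without replicate 1 the odds ratio of TUA5 was 3.96 and the adjusted p 0.00991, over 28 reads, and over all alternatives the adjusted p lay between 0.00991 and 0.827. Reads of a single gene gave 18 of 151 for TUA3 only and 5 of 25 for TUA5 only, with Wilson intervals of 7.67 to 18.1% and 8.86 to 39.1%.

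The alpha-tubulins were also taken as sequence groups, a grouping made after these values were seen and therefore not tested. Uridylated tails were 10.5%, 14.1% and 17.9% of the reads of TUA3 and TUA5 in replicates 1, 2 and 3. They were 1.29%, 7.41% and 6.45% of the reads of TUA2, TUA4 and TUA6. The difference was 9.17, 6.66 and 11.4 percentage points, with a mean of 9.08 ± 2.38 (SD, n = 3). The median number of As of tails without added nucleotides was 28, 24 and 25 for TUA3 and TUA5 against 26, 24 and 22 for TUA2, TUA4 and TUA6. Uridylated tails are left out of these medians, and the part of tail length in the difference was not tested.

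The beta-tubulins had the deepest members. TUB3 had 7 of 212, 11 of 109 and 10 of 132 reads uridylated in replicates 1, 2 and 3, which is 6.18% with an odds ratio of 0.645 (95% interval 0.439 to 0.946). Its unadjusted p was 0.0294 and its adjusted p 0.144 (Cochran-Mantel-Haenszel, Benjamini-Hochberg), so it was not called. TUB4 had 13 of 178, 8 of 134 and 11 of 116, or 7.48%, with an odds ratio of 0.783 (0.546 to 1.12). TUB2, which encodes the same protein as TUB3, had 7 of 75, 3 of 18 and 6 of 27 (13.3%, odds ratio 1.62, 95% interval 0.951 to 2.74). The value of TUB2 was above that of TUB3 in each library, at 9.33% against 3.30%, 16.7% against 10.1% and 22.2% against 7.58%, a difference that was picked out after the values were seen and was not tested.

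TUB5 and TUB6 were thinly covered. TUB6 had 5 of 36, 1 of 11 and 4 of 25 reads uridylated in replicates 1, 2 and 3, or 13.9% with a Wilson interval of 7.72 to 23.7%. TUB5 had 0 of 7, 0 of 9 and 4 of 14, and all 4 of these tails carried at least 2 Us. With 30 reads the odds ratio of TUB5 had an interval of 0.474 to 3.97, so differences within that interval were not detectable at this depth.

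**Figure D2:**
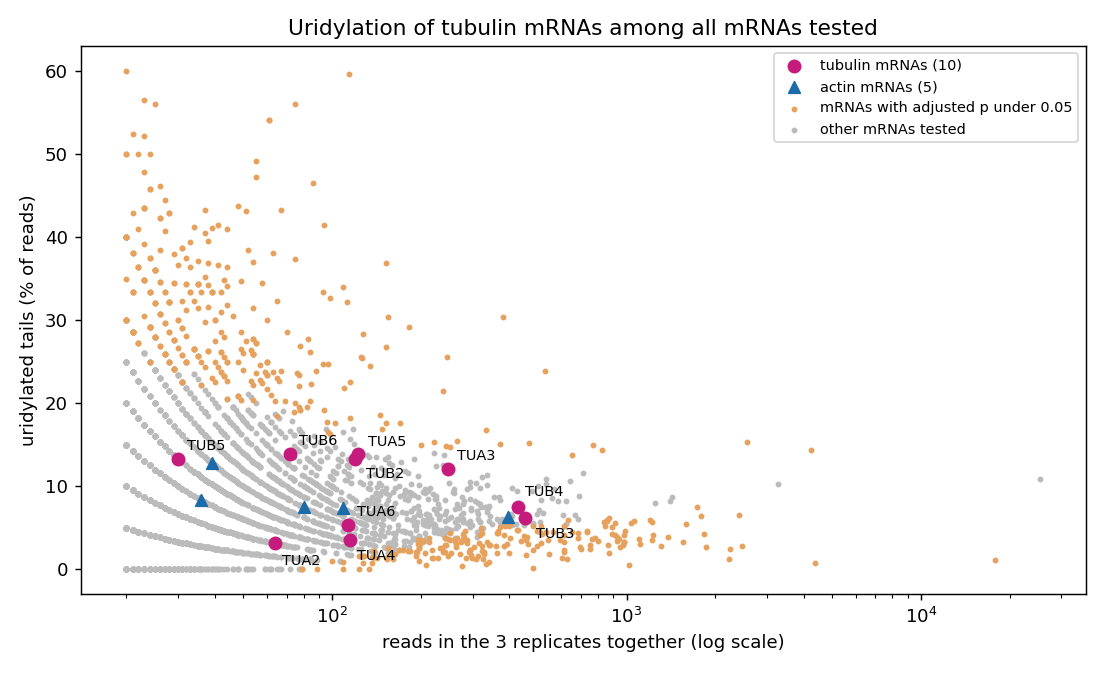
Share of uridylated tails (%) against the number of reads in the 3 replicates together (log scale) for the 10 tubulin mRNAs, 5 actin mRNAs and all other mRNAs of the 3439 tested, with called mRNAs in orange. The tubulin mRNAs lie between 3.12% and 13.9%, within the band of mRNAs that were not called at their depth.

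The second question was how long the tubulin tails were. The median number of As of tails without added nucleotides was 26, 22 and 22 in tubulin reads of replicates 1, 2 and 3 and 26, 22 and 22 in the reads of other mRNAs. The distributions differed in their flanks. Tails of 10 to 25 As were 49.1%, 68.0% and 66.9% of tubulin tails in replicates 1, 2 and 3, and 46.6%, 59.8% and 59.4% of the tails of other mRNAs. Tails under 10 As were 0.270%, 0.557% and 1.85% of tubulin tails, and 1.25%, 2.49% and 2.92% of the tails of other mRNAs. Tails over 25 As were 50.7%, 31.5% and 31.2% of tubulin tails and 52.1%, 37.7% and 37.7% of the others. Without the 3′RACE-seq mRNAs, tails of 10 to 25 As were 47.0%, 62.4% and 59.8% of the tails of other mRNAs, still below the tubulins in each library. Without TUB4 the share of 10 to 25 As in the remaining tubulin reads was 46.2%, 62.0% and 63.3%. That was above the other mRNAs in replicates 2 and 3, but in replicate 3 alone once the 3′RACE-seq mRNAs were left out. Tails under 10 As were few among the 742, 359 and 378 tubulin tails. Without the 3′RACE-seq mRNAs they were 1.25%, 1.73% and 2.05% of the tails of other mRNAs. In the tubulins without TUB4 they were 0.346%, 0.855% and 2.18%, no longer the lower share in replicate 3.

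Among single mRNAs, TUB4, a beta-tubulin, had the shorter tails. Its median was 23, 21 and 20 As in replicates 1, 2 and 3, over 164, 125 and 103 tails, and that of all other mRNAs was 26, 22 and 22. The difference was -2.00 ± 1.00 As (SD, n = 3), with TUB4 below the other mRNAs in each library. Tails over 25 As made up 40.9%, 20.8% and 22.3% of TUB4 tails in replicates 1, 2 and 3. In the 9 tubulin genes without TUB4 they made up 53.5%, 37.2% and 34.5%, and the other mRNAs lay at 52.1%, 37.7% and 37.7%. A tail of TUB4 was the longer one in a pair with a tail of another mRNA with a probability of 0.437, where 0.5 means no difference, and this was below 0.5 in each library, at 0.446, 0.429 and 0.433. It passed the van Elteren test, a rank-sum test stratified by library, with an adjusted p of 0.000286 (Benjamini-Hochberg over 3033 mRNAs with at least 20 such tails).

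TUB4 was the only 1 of the 10 tubulin mRNAs called, as shorter, and 0 were called as longer, where 6.23% of all mRNAs tested were called shorter and 8.54% longer. At an unadjusted p under 0.05 there was 1 longer tubulin mRNA (TUA3) beside TUB4, where 13.6% of all mRNAs tested were longer and 12% shorter at that threshold. Limma on library means also called TUB4 alone of the 10. It tested 1953 mRNAs, and it called 8.45% of the 1905 that were also in the van Elteren test. The probability of TUB4 stood at percentile 16.7 of the mRNAs tested, so tails this short were not rare. TUB4 was called in each of the 11 alternatives tried, with adjusted p-values from 0.000103 to 0.0420 (the highest from limma, log2 difference -0.11).

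**Figure D3:**
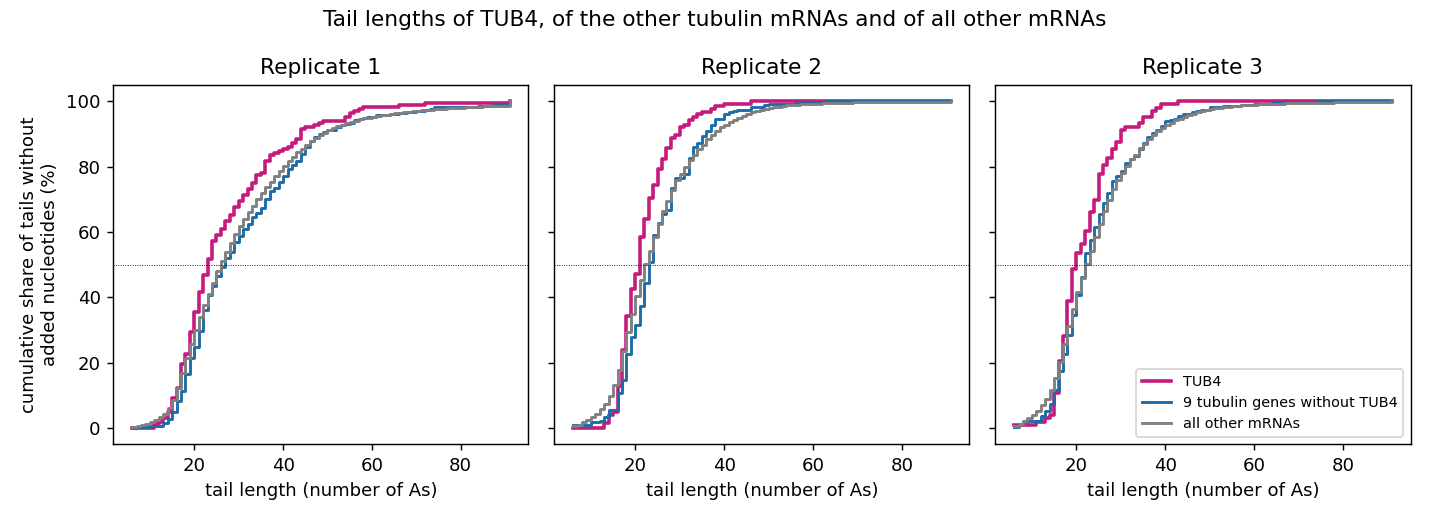
Cumulative share (%) of tails without added nucleotides by number of As, for TUB4, the 9 tubulin genes without TUB4 and all other mRNAs, in each replicate. The TUB4 curve reaches 50% first in each panel, at 23, 21 and 20 As, and the curve of the other 9 tubulin genes lies near that of all other mRNAs.

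The remaining tubulin tails differed from the other mRNAs by less than the test could call. All 5 alpha-tubulins had probabilities above 0.5, from 0.509 for TUA2 to 0.549 for TUA5, as did 1469 of all 3033 mRNAs tested. Most reads of TUA5 are also reads of TUA3, so the 5 are not separate results. In single libraries only TUA2 in replicate 2 (0.443) and TUA6 in replicate 3 (0.416) were below 0.5. TUA3 had the lowest p of the 5 (unadjusted 0.0324, adjusted 0.149 in the van Elteren test with Benjamini-Hochberg adjustment). TUA5 had medians of 28.5, 25 and 28 As, TUA3 of 28, 23 and 25, TUA4 of 27, 24 and 22, TUA2 of 27, 23 and 19, and TUA6 of 26, 24 and 19 in replicates 1, 2 and 3. Replicate 1 had the longest median of these in each of the 5, as it did over all mRNAs. TUB3 had medians of 26.5, 23 and 22 and TUB6 of 25, 22 and 22, close to the other mRNAs. TUB2 had 31 As in replicate 1 and 21 and 20 in replicates 2 and 3, and 22 of its 75 reads in replicate 1 were shared with TUB3. TUB5 had 21, 27 and 31 As over 7, 9 and 10 tails, which is too few to place it.

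**Figure D4:**
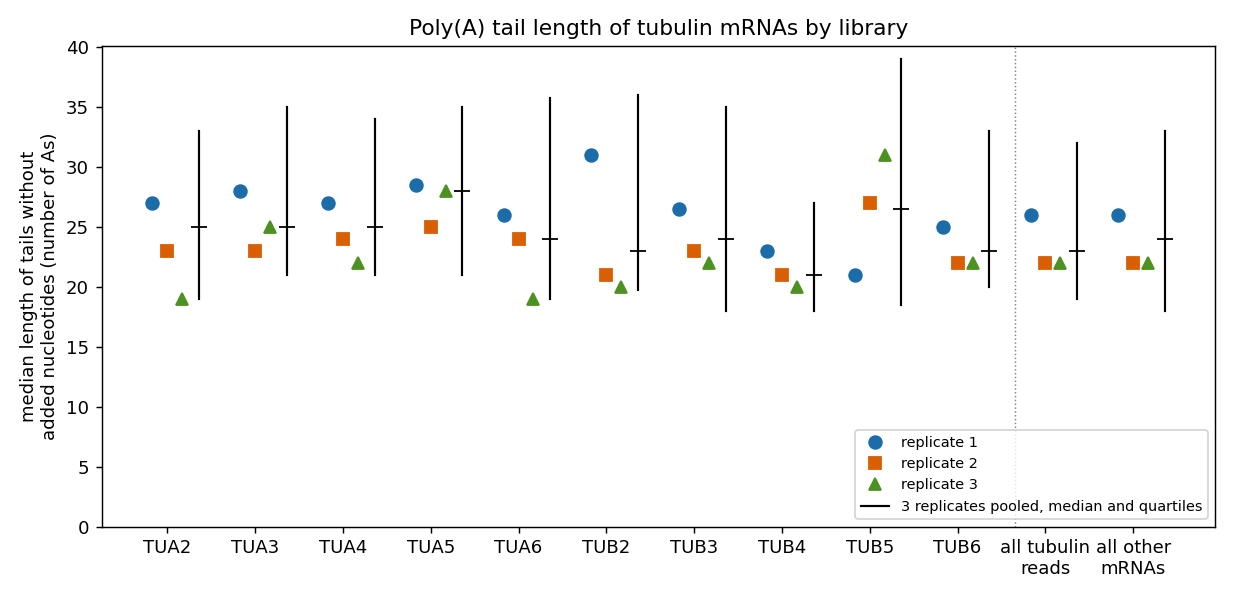
Median number of As of tails without added nucleotides for each tubulin mRNA in the 3 replicates (coloured symbols), with the pooled median and quartiles in black, and all tubulin reads and all other mRNAs at the right. TUB4 lies at 23, 21 and 20 As, below all other mRNAs at 26, 22 and 22, and the symbols of TUB2 and TUB5 are the most scattered.

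Beta-tubulin tails had lower medians than alpha-tubulin tails, at 24, 21.5 and 21 As against 27, 24 and 22 As in replicates 1, 2 and 3, a difference of -2.17 ± 1.04 (SD, n = 3, not tested). TUB4 gave 392 of the 982 beta-tubulin tails. Without it the medians were 26, 22 and 22 As and the difference was -1 ± 1 (SD, n = 3), with no difference in replicate 3. Uridylation did not separate the groups, at 6.38%, 7.86% and 11.2% of beta-tubulin reads against 5.84%, 11% and 11.9% of alpha-tubulin reads.

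Because uridylation depends on tail length, the groups were also compared at like length. Tubulin tails of 11 to 13 As were uridylated in 17 of 28, 6 of 12 and 7 of 17 reads in replicates 1, 2 and 3, which is 60.7%, 50% and 41.2%. Among the other mRNAs, tails of 11 to 13 As were uridylated in 37.5%, 33.8% and 36.3%. This range of lengths was picked out after the values were seen, and it held 57 tubulin reads in all. Only in replicate 1 did the Wilson interval of the tubulin value (42.4 to 76.4%) lie above the other mRNAs. At 14 to 16 As the tubulin share was the lower in each library, at 21.1%, 22.0% and 26.4% against 22.9%, 24.5% and 26.9% in the other mRNAs. At 17 to 19 As it was lower too, at 6.36%, 11.4% and 11.5% against 9.43%, 11.5% and 13.1%. In both of these ranges the value of the other mRNAs lay inside the Wilson interval of the tubulin value in each library. Tubulin tails of 20 to 25 As were uridylated in 1.52%, 4.41% and 5.69%, and tails of the other mRNAs of that length in 3.65%, 4.69% and 5.08%. Of all uridylated tubulin tails, 92.4% ± 1.31 had 10 to 25 As, compared with 84.5% ± 2.44 in the other mRNAs (SD, n = 3 for each).

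**Figure D5:**
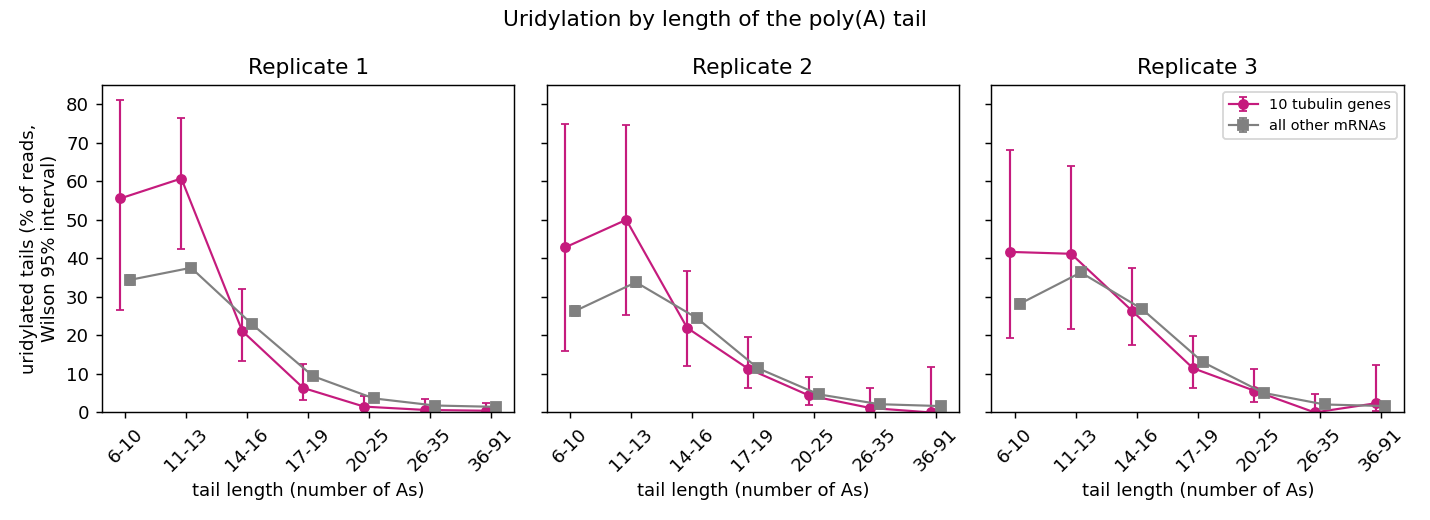
Share of uridylated tails (% of reads, with Wilson 95% intervals) by number of As for the 10 tubulin genes and all other mRNAs in each replicate. In both groups uridylation is highest at 13 As or fewer and falls to a few percent from 20 As on. The tubulin points at 11 to 13 As lie at 60.7%, 50% and 41.2%, above the other mRNAs. Those at 14 to 19 As lie below the other mRNAs, with intervals that include them.

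If tubulin reads of each length had been uridylated as often as the reads of other mRNAs of that length, 53.3, 34.0 and 48.1 uridylated reads would have been found in replicates 1, 2 and 3. The counts were 49, 35 and 49, a ratio of 0.988 ± 0.0599 (SD, n = 3). The other mRNAs here and in the length ranges above include the 3′RACE-seq mRNAs, and neither comparison was made without them. In tails of 10 to 25 As, the other mRNAs were uridylated in 12.3%, 13.7% and 16.0%. Without the 3′RACE-seq mRNAs these shares were 12.3%, 14.5% and 17.1%, and the tubulins had 10.9%, 11.4% and 15.2%. By member, the ratio over the 3 libraries was 0.461 for TUA2, 0.602 for TUA4, 0.804 for TUA6, 0.733 for TUB3 and 0.770 for TUB4. It was 1.61 for TUA3, 2.18 for TUA5, 1.49 for TUB2, 1.56 for TUB5 and 1.64 for TUB6, so the 5 mRNAs above 1 were those with an odds ratio above 1.

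The test per mRNA was repeated on tails of 10 to 25 As alone, where 9 tubulin mRNAs had at least 20 reads and TUB5, with 16, did not. TUA5 was called above the other mRNAs, with 6 of 41, 4 of 10 and 5 of 7 such tails uridylated in replicates 1, 2 and 3 (25.9%, odds ratio 2.38, 95% interval 1.31 to 4.30). Its adjusted p was 0.0412 (Cochran-Mantel-Haenszel, Benjamini-Hochberg over 2043 mRNAs). That made 1 of 9 above and 0 of 9 below, where 8.22% of all mRNAs tested were called above and 7.83% below. Below the others, 1 of 9 (TUB4, 9.74%, odds ratio 0.671) had an unadjusted p under 0.05, compared with 13.95% of all mRNAs tested. The beta-binomial model and the exact conditional test called 0 of 9 below, and they called 229 and 202 of all 2043 mRNAs below. Above the others they called 1 (TUA5) and 0 of 9, and 154 and 167 of all 2043.

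The call of TUA5 did not hold in all settings. Its adjusted p was 0.236 without replicate 2, 0.457 without replicate 3, 0.05002 by the exact conditional test, 0.358 when at least 2 added Us were required and 0.0504 without the 3′RACE-seq mRNAs, and lay between 0.0257 and 0.457 in all. Without replicate 1, or without the reads shared with TUA3, fewer than 20 tails remained and TUA5 was not tested. TUA3, with most of these reads, had 12 of 67, 5 of 38 and 9 of 32 such tails uridylated (19%, odds ratio 1.5) and was not called (adjusted p = 0.262, Cochran-Mantel-Haenszel, Benjamini-Hochberg). TUA2, TUA4 and TUA6 had 5.71%, 6.56% and 9.09%, all with odds ratios below 1 and not called.

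The other 7 tubulin genes listed had between 0 and 150 reads in the 3 libraries together. TUB9, expressed mainly in pollen, had 6 of 99, 7 of 24 and 5 of 27 reads uridylated in replicates 1, 2 and 3 (12%). TUB7 had 4 of 50 and TUB8 had 6 of 27 in all, while TUA1 (19 reads), TUB1 (9), the gamma-tubulin TUBG2 (2) and TUBG1 (0) did not reach the minimum of 20. None of the 3 that could be tested was called in uridylation or in tail length, at either end, by the Cochran-Mantel-Haenszel, van Elteren, beta-binomial or exact test or by limma. Of all mRNAs tested, 9.51% were called above and 5.76% below in uridylation, and 8.54% longer and 6.23% shorter in tail length. The beta-binomial model, the exact test and limma called 13.99%, 16.3% and 8.45%. At an unadjusted p under 0.05 there was 1, TUB8 in uridylation (22.2%, odds ratio 2.85), against 23.8% of all mRNAs tested.

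Tubulin is folded with the help of prefoldin, the TCP-1 chaperonin and the tubulin folding cofactors. Of 20 genes of this machinery, 11 had at least 20 reads. In uridylation 0 of 11 were called by the Cochran-Mantel-Haenszel test, by the beta-binomial model or by the exact test. Of all mRNAs tested, the first called 9.51% above and 5.76% below the others, the beta-binomial model 13.99% and the exact test 16.3%. An unadjusted p under 0.05 was found in 0 of the 11, against 23.8% of all mRNAs tested. The median of the 11 was 8.33%. In tail length 0 of 10 were called by the van Elteren test and 0 of 7 by limma, with 1 of 10 at an unadjusted p under 0.05. Of all mRNAs tested, the van Elteren test called 8.54% longer and 6.23% shorter, and 25.6% had an unadjusted p under 0.05. Limma called 8.45% of the 1905 mRNAs also in the van Elteren test. Of 11 microtubule-associated proteins only the mRNA of SPR1, which keeps the growth of organs straight, reached 20 reads, with 4 of 46 reads uridylated (8.70%) and no call.

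The actins, subunits of the other main filament of the cytoskeleton, served as a comparison. Uridylated tails were 6.17%, 8.79% and 11.4% of tubulin reads and 4.75%, 10.1% and 11.5% of actin reads in replicates 1, 2 and 3, so neither family was the higher in each library. None of the 5 actin mRNAs tested was called in uridylation by the 3 tests, nor had an unadjusted p under 0.05. Among all mRNAs tested, 23.8% had such a p, and the Cochran-Mantel-Haenszel test called 9.51% above and 5.76% below. The beta-binomial model called 13.99% and the exact test 16.3%. In tail length, ACT7, a vegetative actin, was called shorter as TUB4 was, with medians of 23, 19.5 and 20 As over 226, 78 and 65 tails (probability 0.415, adjusted p = 4.28e-07, van Elteren test with Benjamini-Hochberg adjustment). That made 1 of 5 actins, where 6.23% of all mRNAs tested were called shorter. The 5 actin probabilities were all below 0.5 (median 0.464), as were 1564 of all 3033 mRNAs tested. Of the 10 tubulin probabilities, 9 were above 0.5 (median 0.519), as were 1469 of the 3033, whose median was 0.498. Most reads of TUA5 are also reads of TUA3. With all tails, TUB2 (0.497) and TUB6 (0.495) were below 0.5.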

How the data were processed

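Poly(A) tails of 3 wild-type flower libraries were measured by TAIL-seq (the study's methods speak of flower buds). The authors collapsed reads with the same start of read 2, aligned read 1 to TAIR10 with HISAT2 2.1.0 and Bowtie2 and assigned genes with bedtools 2.17.5. In the deposited table each row is one read on one gene, with its tail length in nucleotides and the class of the added nucleotide. These other values are per read and not normalized. The authors kept the replicates apart in the deposited table and pooled them for their percentages. Poly(A) stretches have 6 to 91 As.

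Of 455742 rows, 172 repeats were dropped. A shared read counted for each of its genes and once in all groups of reads. All 10 tubulin identifiers, and all 65 of the lists, matched the RefSeq table of TAIR10.1. The named genes are the 10 tubulins and the listed genes given where their list is described. Members and lists were chosen with earlier results of these data known. Uridylation was compared per mRNA by a Cochran-Mantel-Haenszel test (two-sided, continuity-corrected, stratified by library), and tail length by a two-sided van Elteren test, with Benjamini-Hochberg adjustment over all mRNAs of at least 20 reads. These tests treat reads as independent and do not allow for spread between libraries, which the beta-binomial model (overdispersion 0.00427) and limma 3.58.1 (mean log2 length per library, weighted by tails, at least 5 tails in every library) do. Wilson intervals at 95% and the limit of 3 counts for a 0 cover counting error only. Read counts per mRNA, without the 3′RACE-seq mRNAs, differed between libraries by more than sampling noise (chi-square per degree of freedom 11.8, 9.74 and 2.57 for replicates 1 and 2, 1 and 3, and 2 and 3), so the 3 libraries were kept as separate samples. The counts of the 10 tubulins alone did not separate replicates 2 and 3 (1.48). The per-mRNA tests were tested on simulated data. Python 3.11.15, scipy 1.17.1 and R 4.3.3 were used. Alternatives are in the closing section.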

Additional observations from a re-analysis of the deposited data

How the results depend on the processing

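Leaving out each replicate gave 7.48 to 10.1% for the uridylation of tubulin reads and 22 to 24 As for their median tail. Weighting the 10 mRNAs equally gave 10.8% ± 5.77 and 24.1 ± 1.89 As (SD, n = 3 for each). Requiring at least 2 added Us lowered the uridylation to 3.08%, by construction. In uridylation, the number of tubulin mRNAs called above lay between 0 and 1 when a replicate was left out (1, TUA5, without replicate 1). In tails of 10 to 25 As, the 1 call (TUA5) was lost, leaving 0, without any one replicate (0 to 0), in the exact conditional test, with at least 2 added Us, without shared reads and without the 3′RACE-seq mRNAs. The cause was not tested, other than that TUA5 was under the minimum without replicate 1 or shared reads.

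Of 287 values of single tubulin mRNAs, 271 kept their direction and their side of the threshold, 5 lost and 1 gained the call (all TUA5), and 10 changed direction, all of them uncalled in both settings. In uridylation these were the odds ratios of TUB6 with at least 2 added Us (0.846, and 0.857 in tails of 10 to 25 As). In tail length they were the probabilities of TUB2 (0.399 without replicate 1, 0.497 and 0.499 with all tails, by As and by As and added nucleotides, and 0.491 without shared reads), of TUB6 (0.497 without replicate 2, 0.495 and 0.497 with all tails) and of TUA6 (0.488 without replicate 1). Over the replicates left out, these probabilities ran from 0.399 to 0.553 for TUB2, from 0.497 to 0.522 for TUB6 and from 0.488 to 0.544 for TUA6.

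No paired analysis between conditions was possible because all samples form 1 group, and groups of mRNAs were compared within each library. TUB5 and TUA2, with 30 and 64 pooled reads, had intervals too wide to place them, and extra spread between libraries is not part of the intervals. Sequences of near-identical copies limit TUA3, TUA5, TUA4, TUA6, TUB2 and TUB3.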

Other observations

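Tubulin reads were 357, 351 and 404 per 100000 reads in replicates 1, 2 and 3, and actin reads were 189, 114 and 114. Among single tubulin mRNAs, TUB3 had 95.2, 96.1 and 124 reads per 100000 and TUB4 had 79.9, 118 and 109, while TUB5 had 3.14, 7.93 and 13.1. TUB5 was the least covered of the 10 in replicate 1 and shared the lowest count with TUA2 in replicate 2. The reads of the 3′RACE-seq mRNAs (1.58%, 29.2% and 23.2% of replicates 1, 2 and 3) enter all these denominators, also those of the tubulin and actin families. The family values were not computed without them, so their course over the replicates cannot be read from these values. Without those reads TUB3 had 96.7, 136 and 161 and TUB4 had 81.2, 167 and 141 per 100000. TUA5 had 42.9, 18.7 and 15.8 per 100000 on that scale, and 81 of its 94 reads in replicate 1 were shared with TUA3. ACT4 had 39 reads in replicate 1 and 0 in replicates 2 and 3. Of the 11 tubulin tails that ended in G or C, 4 were TUB3 tails and 4 were TUB4 tails.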
